A study of Mus musculus with 12 samples.

Results

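Diacylglycerol kinases convert diacylglycerol, a lipid second messenger, into phosphatidic acid. The genes described here were taken as every row of the deposited expression table that carries the symbol Dgka, Dgkd, Dgke, Dgkg, Dgkh, Dgkq or Dgkz. The table held 6 of these 7 genes among its 12151 genes, and Dgkg was not analysed here. Dgka and Dgkz had been singled out with earlier results of these data in view, so their values are given as a description with no test. Dgka was selected on its rise upon Cre activation. Which values brought Dgkz forward is not recorded. The other 4 genes, Dgkd, Dgke, Dgkh and Dgkq, were tested.

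Diacylglycerol is released from membrane lipid by phospholipase C and recruits protein kinase C and the Ras activators of the RasGRP family to the membrane. Diacylglycerol kinases end that signal, and their product phosphatidic acid is itself a precursor of other membrane lipids. Dgka and Dgkz are best known in T cells, where they limit signaling below the antigen receptor. In precursor B cells (pre-B cells) the same lipid is formed by phospholipase C-γ2 below the pre-B cell receptor.

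RNA was sequenced from 12 libraries of pre-B cells grown from bone marrow of mice aged 6 to 12 weeks and transformed with BCR-ABL1, an oncogenic tyrosine kinase used to model B cell acute lymphoblastic leukemia (B-ALL). All cells carried Ctnnb1Ex3fl/+, an allele of the β-catenin gene in which exon 3, the exon of the phosphorylation sites used for degradation, can be excised by Cre to stabilize the protein. Cells had received Cas9 ribonucleoproteins with non-targeting guides (sgNTC, here WT) or with guides against Ikzf1 and Ikzf3, the genes of the transcription factors Ikaros and Aiolos (here KO), and lines were grown from single cells. They were then transduced with a GFP vector for ERT2 alone or for Cre-ERT2, whose Cre is switched on by 4-hydroxytamoxifen (4-OHT), and GFP+ cells were sorted. This gave 4 groups of 3 libraries, WT cells with ERT2 or Cre-ERT2 and KO cells with ERT2 or Cre-ERT2. The only time the protocol gives is 1 day of 4-OHT, in a sentence on ChIP-seq. The labels do not say whether the 3 libraries of a group are separate lines or cultures, so P values measure only the spread between these libraries. Differences between KO and WT also carry the differences between single-cell-derived lines, and the 2 cannot be told apart. Every comparison upon β-catenin stabilization sets Cre-ERT2 against ERT2 libraries. All cells carried the allele, so effects of Cre itself or of the separate transductions cannot be told apart from those of stabilized β-catenin.

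Values are log2 expression values normalized between libraries by the authors, with no counts, so the depth of each library is unknown. They are not corrected for transcript length, and levels were not compared between genes. In the libraries labelled KO, Ikzf3 was lower (10.97 to 11.34, against 11.59 to 11.93 in WT) and Ikzf1 was higher (14.56 to 14.76, against 13.66 to 13.75). Small Cas9 edits need not lower an mRNA, so these levels do not check the edit, and KO is used as the label gives it. The study reports that it checked the loss of the Ikaros factors by western blot in its single-cell-derived lines. All 8 B-lineage markers were in the table. Their summed unlogged values were 97787 to 99002 in ERT2 WT, 95037 to 97478 in Cre-ERT2 WT, 77498 to 77621 in ERT2 KO and 72979 to 73883 in Cre-ERT2 KO libraries. Upon β-catenin stabilization 5 fell and 1 rose in WT cells (75%, with 11.9% of all genes called at an adjusted p under 0.05). In KO cells 4 fell and 1 rose (62.5%, background 12.6%). Against WT, 5 were lower and 1 higher in KO cells with ERT2 (75%, background 59.0%). With Cre-ERT2 6 were lower and 1 higher (87.5%, background 58.9%). Cd79a, a signaling chain of the receptor, had log2 differences of -0.79 and -0.76, and the recombinase gene Rag1 was higher by 0.32 and 0.34. Upon β-catenin stabilization, Pax5 fell by 0.22 in WT (limma adjusted p = 0.00115) and by 0.30 in KO cells (adjusted p = 0.000102). Over the alternative fits its adjusted p reached at most 0.0209 and 0.00551. Igll1 and Vpreb1 also fell in WT cells, and Cd79b and Vpreb1 in KO cells. The fall of Rag1 was no longer called when any of 5 libraries (WT cells) or 8 libraries (KO cells) was left out. The rise in WT cells (Ebf1) was lost without either of 2 libraries, and that in KO cells (Cd79a) without any of 4. Of 8 markers each, 1 T cell gene (Lck), 2 myeloid genes (Itgam and Lyz2) and no erythroid or stromal gene had a row. The myeloid sums were 189 to 196 in WT and 350 to 433 in KO libraries, where Lyz2 was higher by 0.99 with ERT2 and 1.23 with Cre-ERT2 (limma adjusted p = 9.36e-11 and 1.11e-11) and Itgam was lower (-0.15 and -0.18). The part of other cell types in the kinase values was not tested. In bulk RNA, fewer cells of a type and less RNA per cell cannot be told apart.

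The promoters of Dgka and Dgkz are shown because Dgka had one of the largest rises upon Cre activation and the study concerns TCF–β-catenin and Ikaros complexes. The sequences are the 250 bases before a RefSeq start site (GRCm38.p6, minus strand, written 5′ to 3′), and capitals mark matches to CTTTGA (core of the TCF/LEF motif) and GGGAA (core of the Ikaros motif), searched on both strands. For each gene the window with the most matches is shown, out of 4 for Dgka and 2 for Dgkz. The Dgka window lies at chr10:128744077-128744326 and the Dgkz window at chr2:91963564-91963813.
Dgka: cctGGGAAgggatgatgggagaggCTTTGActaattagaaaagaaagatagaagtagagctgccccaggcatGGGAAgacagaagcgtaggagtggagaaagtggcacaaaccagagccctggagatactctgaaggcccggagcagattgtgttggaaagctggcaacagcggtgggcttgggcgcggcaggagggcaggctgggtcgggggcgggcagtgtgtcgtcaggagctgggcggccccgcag
Dgkz: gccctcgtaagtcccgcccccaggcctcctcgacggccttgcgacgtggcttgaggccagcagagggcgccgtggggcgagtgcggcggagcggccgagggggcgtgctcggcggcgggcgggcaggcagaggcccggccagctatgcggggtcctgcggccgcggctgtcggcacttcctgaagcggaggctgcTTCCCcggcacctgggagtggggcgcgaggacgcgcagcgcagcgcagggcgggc

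The Dgka window held CTTTGA at 226 to 221 bases before the start site and GGGAA at 247 to 243 and 178 to 174 bases before it. The Dgkz window held GGGAA on the opposite strand, printed as TTCCC, at 55 to 51 bases. These were the only matches in 12 windows, 1 for each RefSeq start site of the 6 genes, and the other 3 Dgka windows held none. Over 32851 promoter windows of the same length, 13.8% held CTTTGA, 56.2% held GGGAA and 7.41% held both. These shares are per window, and the best of several windows of a gene holds a match more often. GTAAACA (FoxO) and GCGTGGGCG (Egr), motifs of factors known to regulate Dgka in T cells, were in 3.17% and 0.536% of all windows and in none of the 12. A match describes letters in a window and not a bound site.

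Dgka (ENSMUSG00000025357, chromosome 10, 128720134 to 128744855 on the minus strand, GRCm38), a calcium-responsive member of the family, was the member with the widest range across groups. Its log2 values were 11.74, 11.81 and 11.77 in ERT2 WT libraries and 13.09, 13.06 and 13.10 in Cre-ERT2 WT libraries. In KO cells they were 11.56, 11.52 and 11.59 with ERT2 and 12.83, 12.83 and 12.87 with Cre-ERT2. All 6 Cre-ERT2 libraries lay above all 6 ERT2 libraries, and within each vector all 3 KO libraries lay below all 3 WT libraries. Group by group from lowest to highest, the order was ERT2 KO, ERT2 WT, Cre-ERT2 KO, Cre-ERT2 WT, and no neighbouring groups overlapped.

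**Figure D1:**
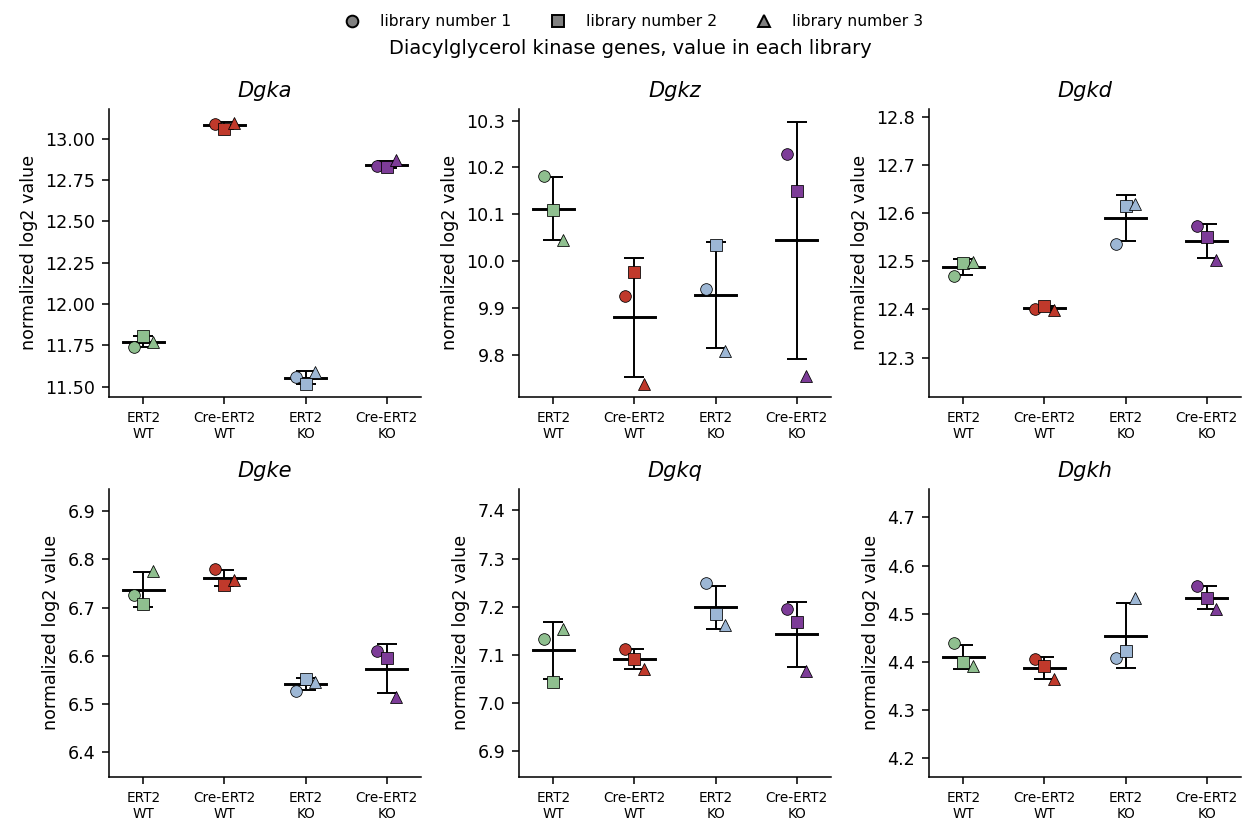
Normalized log2 value of each diacylglycerol kinase gene in each of the 12 libraries, with the group mean (bar) and SD (whiskers, n = 3). Point shapes give the library number, and each panel has its own axis range, which does not start at 0. Dgka separates by vector, and library number 3 (triangle) has the lowest Dgkz value in all 4 groups.

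Group means of Dgka were 11.77 ± 0.032 (SD, n = 3) in ERT2 WT, 13.08 ± 0.022 in Cre-ERT2 WT, 11.56 ± 0.038 in ERT2 KO and 12.84 ± 0.023 in Cre-ERT2 KO. On the unlogged scale these were 3502, 8669, 3010 and 7351 normalized units. The difference upon β-catenin stabilization was 1.31 on the log2 scale (SE 0.025) in WT cells, which is 2.48-fold, and 1.29 (SE 0.025) in KO cells, which is 2.44-fold. In each genotype this was the rise ranked 4 among 12151 genes. The groups did not overlap for 31.1% of all genes in WT and 28.3% in KO cells. As Dgka was chosen for this rise, nothing is read from its rank. The β-catenin effect in KO cells minus that in WT cells was -0.020 (SE 0.036).

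Dgka was lower in KO than in WT cells by a smaller amount. The log2 difference was -0.22 (SE 0.025, 0.86-fold) with ERT2 and -0.24 (SE 0.025, 0.848-fold) with Cre-ERT2. Libraries of KO and WT cells did not overlap for 65.5% of all genes with ERT2 and 63.6% with Cre-ERT2. Centring each library on its median gave -0.25 and -0.27, and quantile normalization gave -0.17 and -0.19. Lck, a tyrosine kinase of T cells and the only T cell marker in the table, moved in the same directions as Dgka but by other amounts. Its unlogged values were 449 to 483 in ERT2 WT, 807 to 849 in Cre-ERT2 WT, 169 to 177 in ERT2 KO and 213 to 221 in Cre-ERT2 KO libraries. Its β-catenin effect was 0.81 in WT and 0.33 in KO cells, a difference of -0.48 (limma adjusted p = 0.000102), where that of Dgka was -0.020. The other T cell markers had no row. The lines were BCR-ABL1 pre-B cells grown from single cells and sorted for GFP, and the part of T cells in the Dgka values was not tested.

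Dgkz (ENSMUSG00000040479, chromosome 2, 91932824 to 91975864 on the minus strand, GRCm38), a nuclear member of the family with ankyrin repeats, had log2 values of 10.18, 10.11 and 10.05 in ERT2 WT and 9.92, 9.98 and 9.74 in Cre-ERT2 WT libraries. In KO cells the values were 9.94, 10.03 and 9.81 with ERT2 and 10.23, 10.15 and 9.76 with Cre-ERT2. The Cre-ERT2 libraries lay below the ERT2 libraries in WT cells, where 31.1% of all genes had no overlap, and the groups overlapped in KO cells. From lowest to highest mean, the order was Cre-ERT2 WT (9.88 ± 0.13, SD, n = 3), ERT2 KO (9.93 ± 0.11), Cre-ERT2 KO (10.04 ± 0.25) and ERT2 WT (10.11 ± 0.068), and all neighbours in this order overlapped.

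The difference in Dgkz upon β-catenin stabilization was -0.23 (SE 0.11) in WT cells and 0.12 (SE 0.11) in KO cells. The KO effect minus the WT effect was 0.35 (SE 0.15). Against WT, KO cells differed by -0.18 (SE 0.11) with ERT2 and by 0.16 (SE 0.11) with Cre-ERT2. The spread of Dgkz within groups was wide, with a pooled SD of 0.157 against a median of 0.0437 over 1924 genes of like mean, and it exceeded that of 99.2% of them. The library numbered 3 was the lowest in all 4 groups, which 191 of all genes (1.57%) showed. Dgka had a pooled SD of 0.0294, against a median of 0.0338 over 759 genes of like mean. The β-catenin difference of Dgkz in KO cells became 0.025, 0.064 or 0.26 without Cre-ERT2 KO replicate 1, 2 or 3, and 0.057 without ERT2 KO replicate 3. The KO against WT difference with Cre-ERT2 became 0.073 or 0.31 without Cre-ERT2 KO replicate 1 or 3, and 0.093 without Cre-ERT2 WT replicate 3.

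**Figure D2:**
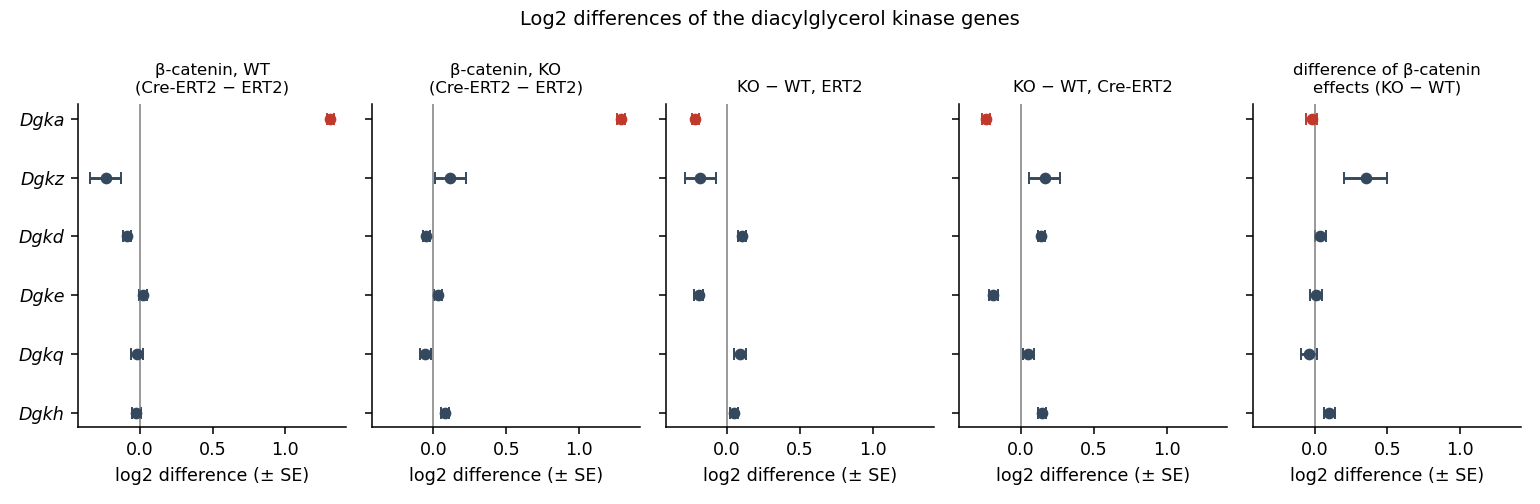
Log2 differences of the 6 diacylglycerol kinase genes in 5 comparisons (points), with the SE from the limma fit to all 12 libraries (whiskers). Dgka (red) lies at 1.31 and 1.29 upon β-catenin stabilization, and each of the other 5 genes lies between -0.23 and 0.12 there.

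The remaining 4 genes were tested with limma, adjusted over all 12151 genes with the Benjamini-Hochberg method and called at an adjusted p under 0.05. Upon β-catenin stabilization none of the 4 was called in WT cells, where 11.9% of all genes were called (5.93% higher and 5.95% lower), and none in KO cells, where 12.6% were (7.27% higher and 5.33% lower). At an unadjusted p under 0.05, 1 of the 4 passed in WT cells (Dgkd, background 24.9%) and 1 in KO cells (Dgkh, background 25.2%). The median log2 difference over the 4 genes was -0.020 in WT and -0.0078 in KO cells, beside 2.18e-05 and -0.00041 over all genes. Between KO and WT cells, 2 of 4 were called with ERT2, 1 higher and 1 lower (background 59.0%, with 29.8% higher and 29.3% lower). With Cre-ERT2 3 of 4 were called, 2 higher and 1 lower (background 58.9%, with 30.4% higher and 28.6% lower). With so few genes, nothing sets these shares apart from the background. No gene of the 4 was called for a β-catenin effect that differed by genotype (background 4.53%, with 2.71% larger and 1.82% smaller in KO cells), and 1 (Dgkh) had an unadjusted p under 0.05 (background 17.3%).

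Dgkd (ENSMUSG00000070738, chromosome 1, 87853287 to 87945180, plus strand) and Dgkh are a closely related pair with pleckstrin homology and SAM domains. Dgkd values were 12.47, 12.50 and 12.50 in ERT2 WT, 12.40, 12.41 and 12.40 in Cre-ERT2 WT, 12.54, 12.61 and 12.62 in ERT2 KO and 12.57, 12.55 and 12.50 in Cre-ERT2 KO libraries. All KO libraries lay above all WT libraries. Within a vector, KO and WT groups did not overlap for 65.5% (ERT2) and 63.6% (Cre-ERT2) of all genes. Dgkd was higher in KO cells by 0.10 with ERT2 (SE 0.026, limma adjusted p = 0.00478) and by 0.14 with Cre-ERT2 (SE 0.026, adjusted p = 0.000477). The β-catenin difference was -0.086 in WT cells (SE 0.026), where the 2 groups did not overlap, as for 31.1% of all genes. With a limma adjusted p of 0.0501 it lay just outside the threshold. It was called when ERT2 KO replicate 1, Cre-ERT2 KO replicate 1 or Cre-ERT2 KO replicate 3 was left out (adjusted p = 0.0251 to 0.0472), and over all alternatives the adjusted p ran from 0.0212 to 0.192. In KO cells the difference was -0.048 (adjusted p = 0.283 with limma).

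Dgkh (ENSMUSG00000034731, chromosome 14, 78558750 to 78732776, minus strand) had values near the lower end of the table's range. They were 4.44, 4.40 and 4.39 in ERT2 WT, 4.41, 4.39 and 4.36 in Cre-ERT2 WT, 4.41, 4.42 and 4.53 in ERT2 KO and 4.56, 4.53 and 4.51 in Cre-ERT2 KO libraries. The 3 Cre-ERT2 KO libraries lay above both WT groups and overlapped only with ERT2 KO replicate 3. With Cre-ERT2, KO and WT groups did not overlap for 63.6% of all genes. Dgkh was higher in KO than in WT cells with Cre-ERT2, by 0.15 (SE 0.028, limma adjusted p = 0.000671), and the difference with ERT2 was 0.045 (adjusted p = 0.193), or 0.0058 without ERT2 KO replicate 3. The β-catenin difference was -0.022 in WT cells (adjusted p = 0.699 with limma) and 0.079 in KO cells (adjusted p = 0.0979). Without ERT2 KO replicate 3, Dgkh was called in KO cells (0.12, limma adjusted p = 0.00319) and its β-catenin effect was called as larger in KO than in WT cells (adjusted p = 0.0165, against 0.209 with all libraries).

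Dgke (ENSMUSG00000000276, chromosome 11, 89035179 to 89066850, minus strand), the member that prefers diacylglycerol with an arachidonoyl chain, was lower in KO cells. Its values were 6.73, 6.71 and 6.78 in ERT2 WT, 6.78, 6.75 and 6.76 in Cre-ERT2 WT, 6.53, 6.55 and 6.55 in ERT2 KO and 6.61, 6.59 and 6.51 in Cre-ERT2 KO libraries. All 6 KO libraries lay below all 6 WT libraries. Within a vector, such groups did not overlap for 65.5% (ERT2) and 63.6% (Cre-ERT2) of all genes. The log2 difference was -0.20 with ERT2 (SE 0.029, limma adjusted p = 7.58e-05) and -0.19 with Cre-ERT2 (SE 0.029, adjusted p = 0.000106). Upon β-catenin stabilization it was 0.024 in WT and 0.032 in KO cells (limma adjusted p = 0.679 and 0.549), with 95% intervals from -0.039 to 0.087 and from -0.031 to 0.095.

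Dgkq (ENSMUSG00000004815, chromosome 5, 108646693 to 108669672, minus strand), the member with 3 cysteine-rich domains, passed in no comparison. Its values were 7.13, 7.04 and 7.15 in ERT2 WT, 7.11, 7.09 and 7.07 in Cre-ERT2 WT, 7.25, 7.18 and 7.16 in ERT2 KO and 7.19, 7.17 and 7.07 in Cre-ERT2 KO libraries. The largest difference was between KO and WT cells with ERT2, where the groups did not overlap, as for 65.5% of all genes. It was 0.089 (SE 0.040, limma adjusted p = 0.0699). It was called when ERT2 WT replicate 3 or Cre-ERT2 KO replicate 3 was left out (adjusted p = 0.0496 and 0.0408). Dgkq overlaps Tmem175 and Idua on the opposite strand by 2090 and 9342 bases, and whether counting used strand is not stated. Both were higher in KO cells, Tmem175 by 0.19 and 0.16 and Idua by 0.18 and 0.13 with ERT2 and Cre-ERT2, where quantile normalization took the last to 0.040 (adjusted p = 0.346). Their part in the Dgkq values was not tested.

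The genes around Dgka were examined because the β-catenin difference of Dgka was the largest in the family. Pmel, a pigment cell gene on the opposite strand that shares 105 bases with the end of Dgka, differed by -0.023 in WT and 0.013 in KO cells (limma adjusted p = 0.261 and 0.556). Wibg (named Pym1 in the annotation), which encodes a partner of the exon junction complex and starts 3033 bases from Dgka on the opposite strand, rose by 0.38 in WT (SE 0.037, adjusted p = 2.76e-05) and by 0.44 in KO cells (SE 0.037, adjusted p = 5.63e-06). Cdk2, a cell cycle kinase 15102 bases away, differed by 0.040 and 0.073 and was not called with all libraries (adjusted p = 0.482 and 0.169, and 0.0426 in KO cells without Cre-ERT2 KO replicate 3). Next to Dgkz, the growth factor gene Mdk lies 526 bases away and was not called in any of the 5 comparisons. Creb3l1, on the other side, was not analysed here.

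The genes whose pattern over the 12 libraries was most like that of Dgka were sought by the root mean square difference between log2 values, each gene centred on its own mean. They were Sbk1 (0.276), Pdzd2 (0.282), Prdm1 (0.337), Cpm (0.341) and Rdh10 (0.377), where Dgka itself had a root mean square of 0.659 around its mean. For 41.3% of all genes the difference from Dgka was below 0.659. All 5 had positive β-catenin differences in both genotypes. Sbk1, a serine/threonine kinase gene, differed by 1.06 in WT and 1.38 in KO cells. Pdzd2 differed by 1.03 and 1.11. Prdm1, the gene of the plasma cell factor Blimp1, differed by 0.66 and 0.64 and, like Dgka, had close values in the 2 genotypes. Cpm, a membrane carboxypeptidase gene, differed by 1.34 in WT but by 0.47 in KO cells. Between KO and WT, Sbk1 and Pdzd2 differed more than Dgka, by -0.90 and -0.77 with ERT2. These genes were found from the values, so the likeness is a description.

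**Figure D3:**
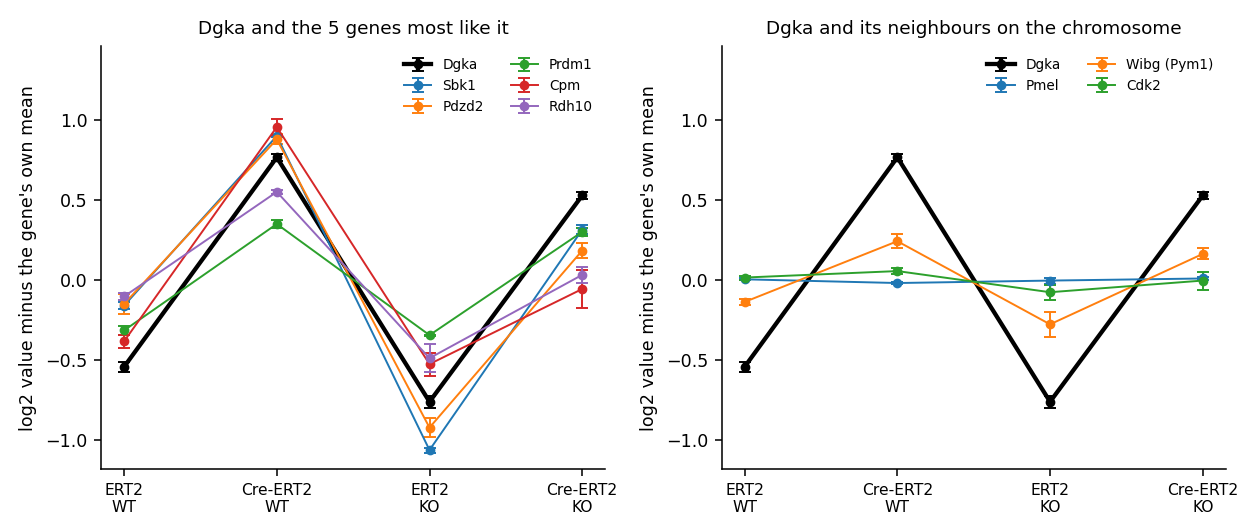
Group means (points, SD whiskers, n = 3) of log2 values centred on each gene's own mean, for Dgka with the 5 genes most like it (left) and with its chromosomal neighbours (right). Lines join the groups as a guide to the eye. Wibg has a smaller rise in the same groups as Dgka, and Pmel stays near 0.

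The genes most like Dgkz were Ddx51 (0.106), Fanca (0.108), Lrrc14 (0.111), Polr1a (0.112) and Rpp21 (0.112), beside a root mean square of 0.158 for Dgkz itself. For 18.8% of all genes the difference from Dgkz was below that value. Ddx51, an RNA helicase gene, differed upon β-catenin stabilization by -0.14 in WT and 0.094 in KO cells, and Polr1a, the gene of the largest subunit of RNA polymerase I, by -0.21 and 0.032.

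Upstream of the kinases, 8 of 14 listed phospholipase C genes were in the table. Upon β-catenin stabilization 1 rose and 2 fell in WT cells (37.5%, background 11.9%), and 1 rose and 1 fell in KO cells (25%, background 12.6%). Plcg2, the isoform used by the pre-B cell receptor, rose by 0.31 in WT (SE 0.023, limma adjusted p = 2.32e-06) and by 0.43 in KO cells (SE 0.023, adjusted p = 6.14e-08). Plcg1, the isoform of T cells and many other tissues, fell by 0.13 in WT (adjusted p = 0.00147) and by 0.16 in KO cells (adjusted p = 0.000288). Plcb3 fell by 0.12 in WT cells (adjusted p = 0.0424), a call lost when any of 8 libraries was left out (adjusted p = 0.0544 to 0.14). The median over the 8 genes was 0.016 in WT and -0.027 in KO cells.

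Among the effectors that diacylglycerol activates, 15 of 20 listed genes were in the table, and 3 rose and 2 fell in WT cells upon β-catenin stabilization (33.3%, background 11.9%). In KO cells 3 rose and 3 fell (40%, background 12.6%). Prkcb, the protein kinase C isoform of B cell receptor signaling, rose by 0.29 in WT (SE 0.031, limma adjusted p = 6.15e-05) and 0.50 in KO cells (SE 0.031, adjusted p = 3.11e-07). Prkcq, the isoform best known from T cells, rose by 0.33 (adjusted p = 0.000364) and 0.51 (adjusted p = 7.37e-06). Rasgrp1, a Ras activator in lymphocytes, fell by 0.24 in WT (SE 0.039, adjusted p = 0.00147) and rose by 0.19 in KO cells (SE 0.039, adjusted p = 0.00622, and 0.0559 in a fit of the compared groups alone). Rasgrp2 fell by 0.18 (adjusted p = 0.00136, and 0.0511 without the libraries numbered 3) and 0.22 (adjusted p = 0.00027), and Rasgrp3 was not analysed here.

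**Figure D4:**
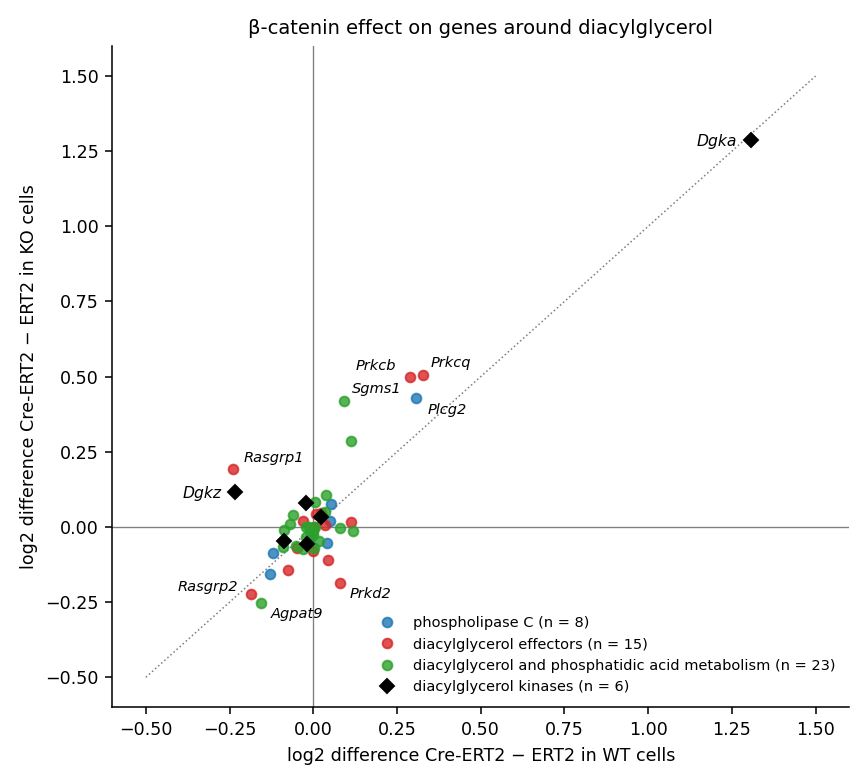
Log2 difference upon β-catenin stabilization in WT cells (x axis) and KO cells (y axis) for the 6 diacylglycerol kinase genes (diamonds) and 46 genes that make, use or turn over diacylglycerol (circles, n of each list in the key). The dotted line marks equal differences. Dgka lies near this line at 1.31 and 1.29, and the effectors Prkcb and Prkcq lie above it.

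Enzymes that make and consume diacylglycerol and phosphatidic acid by other routes were represented by 23 of 26 listed genes. In WT cells 1 was called (4.3%, background 11.9%), Agpat9 (Gpat3), an acyltransferase of the first step of glycerolipid synthesis, which fell by 0.16 (limma adjusted p = 0.00143). In KO cells 3 rose and 1 fell (17.4%, background 12.6%). Sgms1, which releases diacylglycerol during sphingomyelin synthesis, rose by 0.42 (SE 0.063, adjusted p = 0.000741), Ppap2a (Plpp1), a phosphatidic acid phosphatase gene, by 0.085 (adjusted p = 0.00275, and 0.086 without the libraries numbered 3) and Gpam by 0.28 (adjusted p = 0.044), and Agpat9 fell by 0.25 (adjusted p = 2.48e-05). The Gpam call was lost when any of 10 libraries was left out (adjusted p = 0.051 to 0.156). Over the 3 lists, 9 of 46 genes (19.6%, background 11.9%) were called in WT and 12 of 46 (26.1%, background 12.6%) in KO cells, with medians of 0.00067 and -0.0070. Agk, Cerk and Sphk2, lipid kinases that share the catalytic fold, were not called by limma in either genotype upon β-catenin stabilization, and 1 value (Sphk2 in WT cells) had an unadjusted p under 0.05.

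Between KO and WT cells, 32 of the 46 genes were called with ERT2 (22 higher and 10 lower, 69.6%) and 36 with Cre-ERT2 (25 higher and 11 lower, 78.3%), beside backgrounds of 59.0% and 58.9%. Several effectors differed by more than any of the 6 kinase genes. Prkch, a protein kinase C isoform, was higher in KO cells by 2.32 with ERT2 (SE 0.042, limma adjusted p = 1.93e-13) and 2.16 with Cre-ERT2 (SE 0.042, adjusted p = 3.18e-13). Rasgrp1 was lower, with log2 differences of -1.90 and -1.47, as were Prkcq (-0.95 and -0.77), Prkce (-0.67 and -0.61) and Prkcb (-0.64 and -0.44). In all, 6 effectors were higher and 6 lower with ERT2 (80% of 15), and 6 higher and 7 lower with Cre-ERT2 (86.7%).

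**Figure D5:**
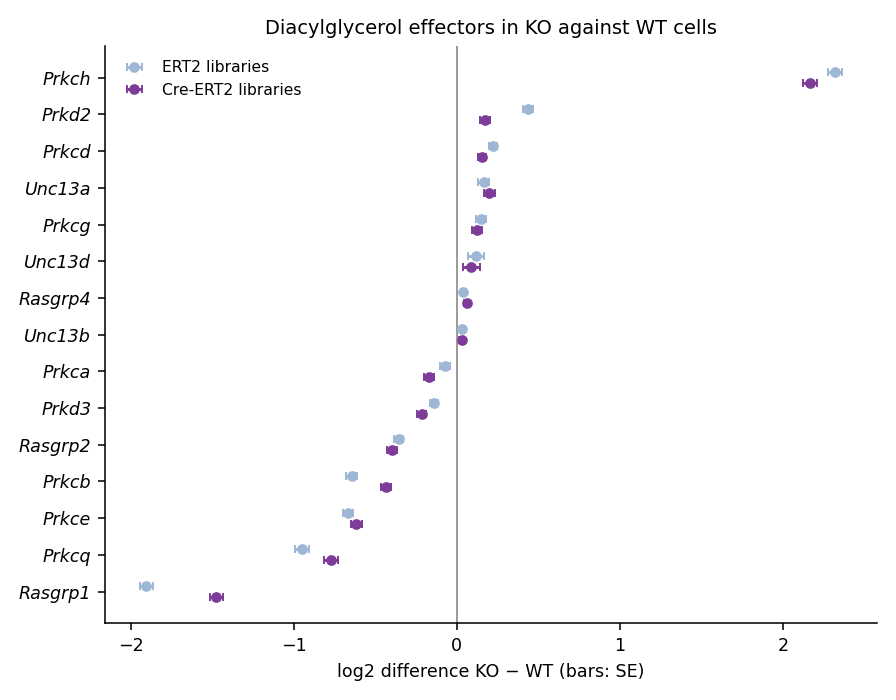
Log2 difference between KO and WT cells of the 15 diacylglycerol effector genes in the table, in ERT2 libraries (light) and Cre-ERT2 libraries (dark), with SE from limma (whiskers). Prkch lies at 2.32 and 2.16 and Rasgrp1 at -1.90 and -1.47.

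Of the phospholipase C genes, 5 were higher and 1 lower in KO cells with either vector (75%, beside backgrounds of 59.0% with ERT2 and 58.9% with Cre-ERT2). Plcb2 was higher by 0.78 and 0.69 (limma adjusted p = 1.91e-10 and 6.31e-10), Plcb3 by 0.36 and 0.39 and Plcg1 by 0.25 and 0.22. Plcg2 was higher by 0.080 with ERT2 and 0.20 with Cre-ERT2, and centring each library on its median took the first to 0.048 (adjusted p = 0.0985). Plcl1 was higher by 0.14 with ERT2 (adjusted p = 0.0146, and 0.0666 without ERT2 WT replicate 2), and by 0.081 after quantile normalization (adjusted p = 0.126). Of the metabolic enzymes, 11 were higher and 3 lower with ERT2 (60.9%, near the background) and 14 higher and 3 lower with Cre-ERT2 (73.9%). Ppap2c (Plpp2), a phosphatidic acid phosphatase gene, was higher by 0.82 and 0.89, Agpat4 by 0.40 and 0.32 and Mgll, a monoacylglycerol lipase gene, by 0.34 and 0.31. Agpat9 was higher by 0.38 with ERT2, and Sgms1 by 0.53 with Cre-ERT2. Among the other lipid kinases, Cerk, the ceramide kinase gene, was lower (log2 differences of -0.76 and -0.79), as was Sphk2 (-0.15 and -0.27), and Agk was higher by 0.16 and 0.14.

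Known regulators of Dgka in T cells were listed as Foxo1, Foxo3, Egr1, Egr2 and Egr3, of which FoxO factors raise its transcription there. Egr3 was not analysed here. None of the other 4 was called upon β-catenin stabilization in WT cells by limma (background 11.9%). None had an unadjusted p under 0.05 there (background 24.9%). With 4 genes, nothing sets these counts apart from the background. These are mRNA levels, and the activity of the factors was not measured. In KO cells 1 of the 4 was called (25%, background 12.6%), Foxo1, which fell by 0.19 (SE 0.031, limma adjusted p = 0.00127). Egr1 differed by -0.22 there (adjusted p = 0.0533) and was called when any of 4 WT libraries was left out (adjusted p = 0.0321 to 0.0396), with the compared groups alone (0.0208), with the filter at 8 (0.0398) and under median centring or quantile normalization (0.0416 and 0.0446). Egr2 differed by 0.041 and -0.063 (adjusted p = 0.676 and 0.479). Between KO and WT, 3 of the 4 were called with either vector (75%, beside backgrounds of 59.0% with ERT2 and 58.9% with Cre-ERT2). Foxo1 was lower (-0.12 and -0.30), Foxo3 was higher by 0.27 and 0.28 and Egr1 was higher by 0.57 and 0.33. Egr2 differed by 0.12 with ERT2 (adjusted p = 0.0585, and 0.0191 to 0.0466 without ERT2 KO replicate 1, ERT2 KO replicate 2 or Cre-ERT2 WT replicate 2) and by 0.012 with Cre-ERT2. Quantile normalization took the Foxo1 difference with ERT2 to -0.063 (adjusted p = 0.092).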

How the data were processed

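RNA from 12 libraries was sequenced as 101 bp paired-end reads, after poly(A) selection and 10 PCR cycles from 280 ng of RNA. The authors' processing notes name Salmon 1.4.0, STAR 2.7.6 and DESeq2 1.30.1 with mm10 (GRCm38), and the study names GENCODE M24. The deposited table holds 1 normalized log2 value per gene and library (1.76 to 18.87, 12151 genes). The transformation and the use of strand are not stated. A variance-stabilizing or shrinking transformation would understate differences of genes with low values, such as Dgkh. With no counts, depth is unknown.

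Group means of the 4 groups were estimated in 1 linear model with limma 3.58.1, run in R 4.3.3 over the 12 libraries (eBayes with a mean trend, Benjamini-Hochberg over 12151 genes, called at adjusted p under 0.05). An exact 2-sided permutation of 3 against 3 libraries allows no p below 0.1 and was not used. The fit was tried on simulated data with independent noise. These held no library effects and no added differences as small as those of the tested kinase genes. Groups came from sample titles. Genes were named if called and among the 4 largest differences of their list, or if fixed by name (Plcg2, Prkcb, Rasgrp1, Rasgrp3, Foxo1, Egr2 and Egr3). The members and lists were chosen with earlier results of these data known. Replicate numbers did not pair libraries (18 same-number pairs, correlation of deviations -0.091 to 0.313, 2 above 0.1). Coordinates came from GENCODE M21 (GRCm38) and promoters from RefSeq, which matched all 6 genes. Alternatives changed the scaling, filter (mean above 8), pseudocount (1 on unlogged values), moderation, threshold (0.01), libraries in the fit and block. Leaving out all libraries numbered 3 was added after seeing the data.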

Additional observations from a re-analysis of the deposited data

Results flagged for a closer look

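The limma test of the difference itself called a β-catenin effect that differed by genotype for 8 genes of the tested lists and of the edited genes Ikzf1 and Ikzf3. Rasgrp1 differed by 0.43 (adjusted p = 0.000642), with -0.24 in WT and 0.19 in KO cells. Prkd2, a protein kinase D gene among the diacylglycerol effectors, differed by -0.26 (adjusted p = 0.00418), with 0.079 in WT and -0.18 in KO cells. Prkcb differed by 0.21 (adjusted p = 0.0172), with 0.29 in WT and 0.50 in KO cells, and the call was lost without ERT2 WT replicate 1 (adjusted p = 0.0502). Foxo1 differed by -0.18 (adjusted p = 0.0367), with -0.010 in WT and -0.19 in KO cells, and the call was lost when any of 10 libraries was left out (adjusted p = 0.0561 to 0.0898). Lck differed by -0.48 (adjusted p = 0.000102), with 0.81 in WT and 0.33 in KO cells. Lyz2, a myeloid marker, differed by 0.24 (adjusted p = 0.0145), with -0.032 and 0.21, and the call was lost without the libraries numbered 3 (adjusted p = 0.123). Ebf1, a B-lineage marker, differed by -0.19 (adjusted p = 0.0175), with 0.11 and -0.072. Ikzf1 differed by -0.10 (adjusted p = 0.0422), with -0.062 and -0.17, and the call was lost when any of 11 libraries was left out (adjusted p = 0.0623 to 0.106). Of all genes, 4.53% were called for such a difference. Over the 3 diacylglycerol lists 3 of 46 genes (6.5%) were called, near that background, and all 3 were among the 15 effectors (20%). The regulators of Dgka gave 1 of 4 (25%) and the B-lineage markers 1 of 8 (12.5%). The T cell markers gave 1 of 1 and the myeloid markers 1 of 2. None of the 4 tested kinase genes and none of the 3 other lipid kinases was called. The lists are small and were chosen with earlier results of these data known.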

How the results depend on the processing

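Dgka rose upon β-catenin stabilization by 1.29 to 1.32 in WT and 1.27 to 1.31 in KO cells over all alternatives. Its KO against WT differences moved by more than the replicate SD under median centring (-0.25 with ERT2, -0.27 with Cre-ERT2) and quantile normalization (-0.17 and -0.19). For Dgkz, leaving out 1 library gave -0.28 to -0.16 in WT and 0.025 to 0.26 in KO cells. The count of called kinase genes in WT cells went from 0 to 1 (Dgkd) with the compared groups alone, without the trend, with robust moderation, median centring, the pseudocount and the filter at 8, and ran from 0 to 1 with 1 library left out. In KO cells and for the difference of effects it went from 0 to 1 (Dgkh) without the libraries numbered 3, and from 0 to 1 with 1 library left out. The filter at 8, which leaves Dgkd as the only tested kinase gene, gave 1 call in each KO against WT comparison, and 20 and 23 calls over the 3 lists. With 1 library left out the list count for the difference of effects ran from 2 to 5. Of all genes, adjusted p under 0.01 called 787 in WT and 790 in KO cells and 240 for the difference (1443, 1531 and 550 at 0.05), and leaving out the libraries numbered 3 called 840, 841 and 210. The compared groups alone gave 934 in KO cells, and the filter gave 337 for the difference. Mdk turned from 0.0050 and 0.0094 (not called) to -0.027 and -0.024 (called) in the KO against WT comparisons under median centring.

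With the replicate number as a block, 0, 0, 2, 3 and 0 kinase genes were called in the 5 comparisons, as without it, and 1361 genes in WT and 1374 in KO cells. The SE of Dgkz fell from 0.11 to 0.063 under the block. The block also called Egr1 in KO cells (adjusted p = 0.00397) and its difference of effects (adjusted p = 0.0336). Over the alternatives, the other named genes lost 128 calls and gained 32 among 4526 values, and the causes were not tested. The 4 tested kinase genes lost none and gained 16 among 401 values. Without counts, what depth limits could not be assessed.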
